A study of Mus musculus with 16 samples.

Results

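*Arhgap8* and *Prr5* are adjacent genes on mouse chromosome 15, and their RNA levels were followed line by line in the vomeronasal organ (VNO), the sensory organ of the nasal cavity that detects pheromones. They are 2 of the 24407 genes with counts. *Arhgap8* was chosen because its level differed between High Runner (HR) and Control lines in these libraries, so its values in that comparison are given as a description without a test. *Prr5* was chosen by its position next to *Arhgap8*. The libraries came from mice bred from the outbred Hsd:ICR strain, 12 weeks old and of generation 88, either from 4 HR lines (lines 3, 6, 7 and 8), which had been selected for high voluntary wheel running, or from 4 Control lines (lines 1, 2, 4 and 5), which had been bred without that selection. Each line gave 1 male and 1 female library, and each library was made from the pooled VNOs of 3 mice, so that the line, not the mouse, is the unit of the comparison and a pool holds no measure of the spread between its mice. All 16 libraries were prepared in the same way from total RNA depleted of ribosomal RNA, and reads of 75 bases were sequenced. The tables of each sex hold 8 libraries, so sex and sequencing run may coincide and cannot be told apart.

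ARHGAP8 is a GTPase-activating protein, one of the proteins that switch off small GTPases by speeding the hydrolysis of their bound GTP. Besides its GTPase-activating domain it carries a BCH (BNIP2 and Cdc42GAP homology) domain, which it shares with ARHGAP1, its closest relative. PRR5, also called Protor-1, is a subunit of mTOR complex 2 that binds RICTOR. That complex phosphorylates kinases of the AKT, SGK and PKC families.

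On GRCm38, with GENCODE M21 annotation, *Prr5* (ENSMUSG00000036106.15) spans chr15:84669620-84703673 and *Arhgap8* (ENSMUSG00000078954.9) spans chr15:84720052-84772207. Both lie on the plus strand, with *Prr5* upstream, and 16378 bases separate the end of *Prr5* from the start of *Arhgap8*. *Prr5* has 2 annotated transcripts, both coding. *Arhgap8* has 7, of which 3 are coding and the others are retained introns or processed transcripts. The exons of *Prr5* cover 1917 bases and those of *Arhgap8* cover 3546 bases. No stretch of 75 bases is shared by the transcripts of *Arhgap8* and *Prr5*. All 1841 such stretches in *Prr5* occur in no other annotated gene, as do 98.9% of the 3688 in *Arhgap8*. A non-coding RNA gene on the minus strand, *Gm20556* (chr15:84714629-84720266), overlaps the start of *Arhgap8*. Its counts, 0 to 12 in a library, were too few to test.

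The RefSeq table used here gives 2 start sites for *Prr5* on GRCm38.p6. The 250 bases upstream of each are shown, plus strand, because *Prr5* was asked to follow its neighbour and these are the windows at its own RefSeq starts. The first start, 84663206, lies upstream of the GENCODE span of *Prr5*, whose own start at 84669620 has no window here. By RefSeq, 13624 bases separate *Prr5* from *Arhgap8*. Capitals mark the GC box, GGGCGG, or CCGCCC where the match is on the minus strand.
Prr5 upstream of the first start (chr15:84662956-84663205): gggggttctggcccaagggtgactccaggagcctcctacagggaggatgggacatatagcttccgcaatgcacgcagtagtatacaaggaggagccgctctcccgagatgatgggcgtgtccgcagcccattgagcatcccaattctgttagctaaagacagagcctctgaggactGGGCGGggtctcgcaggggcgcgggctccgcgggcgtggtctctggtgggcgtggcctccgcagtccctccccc
Prr5 upstream of the second start (chr15:84680748-84680997): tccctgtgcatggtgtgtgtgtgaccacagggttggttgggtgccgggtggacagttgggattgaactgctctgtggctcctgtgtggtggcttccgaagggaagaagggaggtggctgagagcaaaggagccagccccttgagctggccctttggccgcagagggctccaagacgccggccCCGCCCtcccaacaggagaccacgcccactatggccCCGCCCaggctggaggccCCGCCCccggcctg
The first window has 64.0% G and C, 15 CpG and 1 GC box. The second has 66.8% G and C, 10 CpG and 3 GC boxes. Neither holds TATAAA or CACGTG. Over 32851 promoter windows of the same length, searched on both strands, 32.7% hold the GC box, 12.4% TATAAA and 6.02% CACGTG, with a median of 52.4% G and C and of 6 CpG.

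The count tables gave 15998552 to 70875276 counts on genes per library (median 37366329). Markers of mature vomeronasal sensory neurons were high in every library (2640 to 4915 CPM, counts scaled by library size, summed over the list). *Trpc2*, the channel that defines these neurons, and 4 globin genes are listed at 0 counts in every library, although the RPKM tables list *Trpc2* at a mean of 329 and *Hba-a1* at 115, so the count tables lack the reads of some genes. *Arhgap8* and *Prr5* have values in both kinds of table. Epidermal markers summed to 1113 CPM in the female library of Control line 4 and to at most 187 CPM in any HR library. Their median was 137 CPM over Control libraries and 119 CPM over HR libraries.

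The level of *Arhgap8* was low and nearly equal in the 4 Control lines, severalfold higher in HR lines 3, 6 and 7, and at the Control level in HR line 8. In the male pools of Control lines 1, 2, 4 and 5 it was 3.05, 3.80, 2.97 and 3.35 CPM, and in the female pools 4.34, 3.55, 3.57 and 4.21 CPM. In the male pools of HR lines 3, 6, 7 and 8 it was 11.3, 17.5, 17.2 and 3.13 CPM, and in the female pools 8.59, 18.9, 19.4 and 3.53 CPM. Both pools of HR lines 3, 6 and 7 thus lay above every Control pool, and both pools of HR line 8 lay within the range of the Control pools. These values rest on 66 to 313 counts per Control library and 121 to 921 counts per HR library.

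Averaged over its male and female pool, HR line 7 had 18.3 CPM and HR line 6 had 18.2 CPM, 5.07 and 5.06 times the mean of the Control lines. HR line 3 was intermediate at 9.92 CPM, 2.75 times that mean. The Control lines followed at 3.78 (line 5), 3.69 (line 1), 3.68 (line 2) and 3.27 CPM (line 4), with HR line 8 among them at 3.33 CPM, 0.923 times the Control mean. The pools of lines 6 and 7 overlapped each other, those of line 3 overlapped no other line, and those of HR line 8 and the 4 Control lines lay together between 2.97 and 4.34 CPM. HR line 8 overlapped every Control line except line 2, whose lower pool stood at 3.55 CPM against 3.53 CPM.

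**Figure D1:**
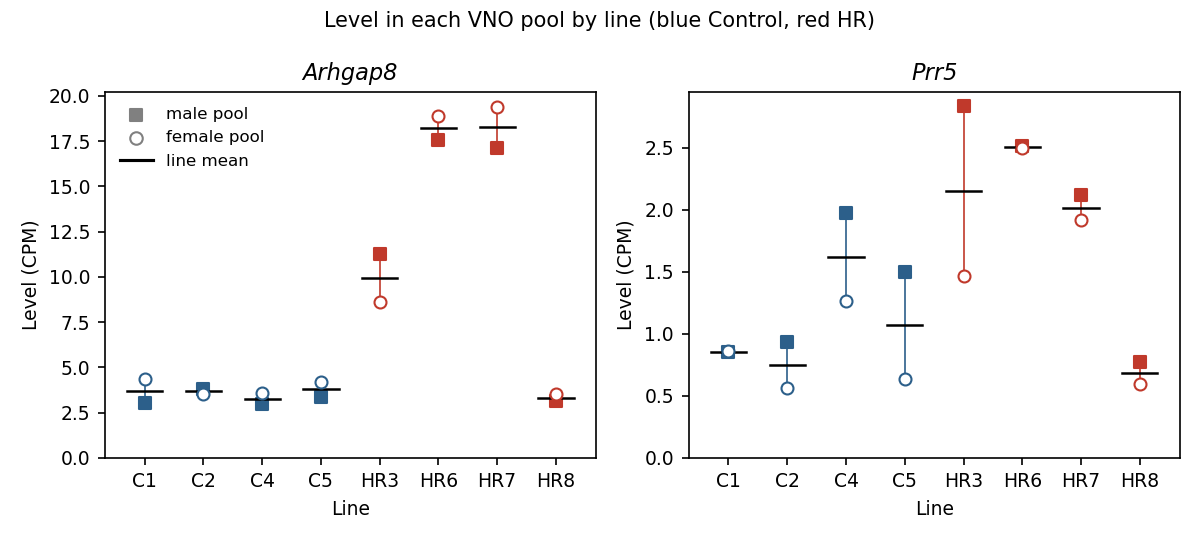
Levels of *Arhgap8* (left) and *Prr5* (right) in CPM for each line, with Control lines in blue and HR lines in red, squares for male pools, open circles for female pools and bars for the mean of both. *Arhgap8* sits between 2.97 and 4.34 CPM in every Control pool and at 3.13 and 3.53 CPM in HR line 8, while the other HR pools lie between 8.59 and 19.4 CPM.

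The mean over lines was 12.4 ± 7.23 CPM (SD, n = 4) in HR lines and 3.61 ± 0.228 CPM (SD, n = 4) in Control lines. On the scale of the authors' RPKM, which also divides by gene length, it was 8.57 ± 4.91 in HR lines and 2.58 ± 0.162 in Control lines (SD, n = 4 each). The log2 fold change fitted in edgeR was 1.79 (SE 0.35), with 1.90 (SE 0.47) in males alone and 1.69 (SE 0.48) in females alone. Without HR line 8 it was 2.11 (SE 0.18), and without HR line 6 or without HR line 7 it was 1.55 (SE 0.36 in both). The highest HR line stood at 5.49 times the lowest, against 1.16 times among Control lines. The SD of log2 CPM over lines was 1.15 in HR lines, where 428 of 16507 genes had a larger SD and the median gene had 0.18, and 0.09 in Control lines, where the median gene had 0.19.

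*Prr5* was expressed at a lower level, and its lines were less clearly apart. In the male pools of Control lines 1, 2, 4 and 5 it was 0.850, 0.932, 1.97 and 1.50 CPM, and in the female pools 0.860, 0.567, 1.27 and 0.638 CPM. In the male pools of HR lines 3, 6, 7 and 8 it was 2.84, 2.51, 2.12 and 0.777 CPM, and in the female pools 1.47, 2.50, 1.92 and 0.592 CPM. Of the 8 HR pools, 4 lay above every Control pool, and HR line 8 had the lowest line mean of all. The counts were small, 10 to 75 per Control library and 22 to 120 per HR library. The 11 counts of the female pool of Control line 2 have an exact 95% Poisson interval of 5.49 to 19.7 counts, which covers counting error only.

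The order of the line means of *Prr5* was HR line 6 (2.51 CPM), HR line 3 (2.15 CPM), HR line 7 (2.02 CPM), Control line 4 (1.62 CPM), Control line 5 (1.07 CPM), Control line 1 (0.855 CPM), Control line 2 (0.749 CPM) and HR line 8 (0.684 CPM). HR lines 6, 3 and 7 stood at 2.34, 2.01 and 1.88 times the mean of the Control lines, and HR line 8 at 0.638 times. HR line 3, intermediate for *Arhgap8*, was not intermediate for *Prr5*. The pools of HR line 3 spread from 1.47 to 2.84 CPM and overlapped those of HR lines 6 and 7 and of Control lines 4 and 5. HR line 8 overlapped Control lines 2 and 5.

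Over lines, *Prr5* was at 1.84 ± 0.798 CPM (SD, n = 4) in HR lines and 1.07 ± 0.388 CPM (SD, n = 4) in Control lines, or 1.13 ± 0.496 and 0.658 ± 0.250 RPKM (SD, n = 4 each). The log2 fold change of HR against Control was 0.79 (SE 0.32), with an adjusted *p* = 0.9997 by edgeR's quasi-likelihood test (Benjamini-Hochberg, 16507 genes) and an unadjusted *p* = 0.0244 in the same edgeR test. *Prr5* therefore did not pass the test. Of all genes tested, 0.0242% had an adjusted *p* under 0.05 and 3.3% an unadjusted one. The fit behind these values counts both pools of a line as separate samples, which can make the unadjusted *p* of *Prr5* too small. With each line summed to 1 sample, its log2 fold change was 0.74 (SE 0.41, edgeR unadjusted *p* = 0.107). When limma-voom treated the pools of a line as correlated, it was 0.70 (SE 0.37, limma-voom unadjusted *p* = 0.0767). The unadjusted *p* of *Prr5* thus stayed above 0.05 in both fits that took account of the line. In males alone the log2 fold change was 0.66 (SE 0.44) and in females alone 0.93 (SE 0.45). Without HR line 8 it was 1.07 (SE 0.24, edgeR adjusted *p* = 0.356), and without Control line 4 it was 1.06 (SE 0.34, edgeR adjusted *p* = 0.959). Leaving out any other line lowered it, to between 0.60 (SE 0.34, without HR line 6) and 0.78 (SE 0.36, without Control line 5).

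Per length, *Arhgap8* was the more abundant of the pair in every library. Its RPKM was 1.70 to 7.99 times that of *Prr5* in Control libraries, with a median of 4.51, and 4.54 to 11.3 times in HR libraries, with a median of 7.35. The lengths implied by the ratio of counts to RPKM were 1.44 kb for *Arhgap8* and 1.65 kb for *Prr5* at the median, shorter than the annotated exons. In bulk RNA from a whole organ, fewer cells of a type and less RNA per cell cannot be told apart for either gene.

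Whether *Prr5* followed *Arhgap8* from line to line was asked on values centred within each linetype, so that the difference between HR and Control lines could not produce the relation. Over the 8 line means of log2 CPM, Pearson's r was 0.788 (two-sided exact permutation of lines within linetype, *p* = 0.153) and Spearman's rank correlation was 0.190 (exact *p* = 0.738). The smallest *p* these 576 arrangements can give is 0.00174. Without the lines farthest from the median of the centred *Arhgap8* values, lines 7 and 8, r was 0.04 over 6 lines. Line 6 lay almost as far out as line 7, both at 4.19 in log2 CPM before centring. Without HR line 8 alone it was -0.05, and without Control line 4 alone it was 0.93. The relation rested on HR line 8, in which both genes were low. Among HR lines 3, 6 and 7, *Arhgap8* ranged from 9.92 to 18.3 CPM while *Prr5* stayed between 2.02 and 2.51 CPM. Among Control lines, *Prr5* ranged from 0.749 to 1.62 CPM while *Arhgap8* stayed between 3.27 and 3.78 CPM.

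**Figure D2:**
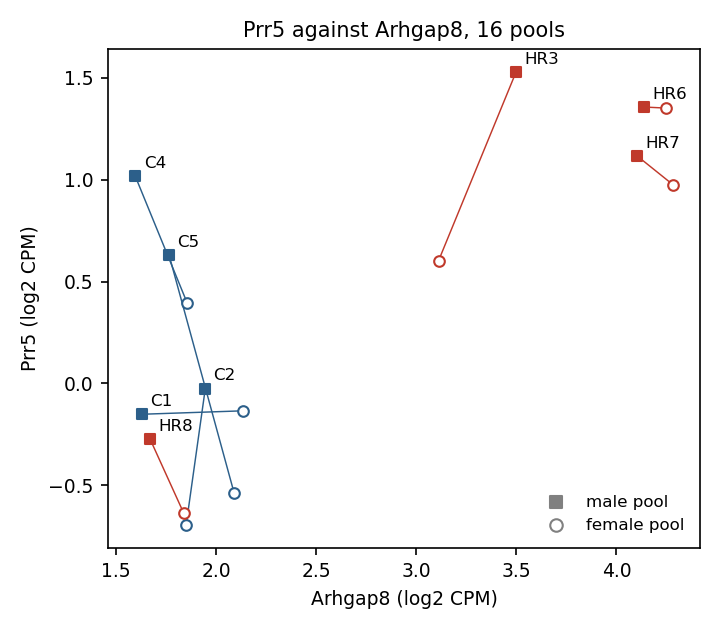
Log2 CPM of *Prr5* against log2 CPM of *Arhgap8* in the 16 pools, with Control lines in blue, HR lines in red, squares for male and open circles for female pools, and a line joining the pools of 1 line. HR lines 3, 6 and 7 lie at the upper right, and HR line 8 lies with the Control lines at the left, where *Prr5* varies while *Arhgap8* hardly does.

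The male and the female pool of a line came from different mice, which allowed their levels to be compared. Once each sex was centred within its linetype, they differed by a mean of 0.19 in log2 CPM over the 8 lines, against a mean of 0.62 over all pairings of female with male pools within a linetype, its own line's pool included (one-sided exact permutation test, *p* = 0.0556). For *Prr5* the means were 0.30 and 0.64 (one-sided exact permutation test, *p* = 0.0729), and both *p* were 0.0729 after Benjamini-Hochberg adjustment over the 2 exact tests. The test misses the threshold of 0.05 for both genes on this scale. On log2(RPKM + 1), and on log2(RPKM + 0.1), the exact permutation *p* for *Arhgap8* was 0.0486, not adjusted over the 2 genes. Without HR line 8 the differences were 0.20 for *Arhgap8* and 0.34 for *Prr5* against 0.31 and 0.42 over all pairings (exact permutation *p* = 0.222 and 0.292). The contrast with the other pairings thus rested largely on that line. Without HR line 3 the *Arhgap8* difference was 0.11 against 0.56 over all pairings. The contrast remained, although the exact permutation *p* rose to 0.250 over 144 arrangements.

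No sex difference passed the test for either gene. For *Arhgap8* the female minus male difference was 0.14 in log2 units (SE 0.34, edgeR adjusted *p* = 0.963). *Prr5* was lower in the female pool in 7 of 8 lines, and the difference was -0.48 (SE 0.32, edgeR adjusted *p* = 0.764), or -0.46 (SE 0.16, edgeR adjusted *p* = 0.199) with line as a replicate block. Of all genes, 0.188% passed the test of sex and 0.545% passed it with the block. The difference between HR and Control lines did not itself differ detectably between the sexes. The interaction was -0.21 for *Arhgap8* (SE 0.69) and 0.27 for *Prr5* (SE 0.65), and 0 of 16757 genes (0%) passed edgeR's quasi-likelihood test of the interaction after adjustment, with 77 (0.46%) at an unadjusted *p* under 0.05. By DESeq2 the adjusted *p* of the interaction was 0.9999 for both genes.

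The neighbouring genes were then read along the chromosome, within 500 kb on either side of the pair. This stretch holds 17 other genes of the tables, of which 14 were tested. None passed edgeR's quasi-likelihood test after Benjamini-Hochberg adjustment, nor the test in DESeq2, and 5 had an unadjusted *p* under 0.05, 4 higher and 1 lower in HR lines, where 1.6% and 1.7% of all genes were. The same edgeR adjusted threshold was passed by 0.0242% of all genes, and that of DESeq2 by 0.182%. The count of 5 was not stable: it was 3 with each line summed to 1 sample or with line as a random effect, 2 in each sex alone, 2 without HR line 7, and 3 without HR line 6, Control line 2 or Control line 4. All 5 lay downstream of *Arhgap8*. The 6 tested genes upstream of *Prr5* had log2 fold changes from -0.04 to 0.07, and the 8 tested downstream of *Arhgap8* had values from -0.40 to 0.82. The median over the 14 was 0.03, against 0.003 over all genes tested.

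The 3 nearest tested genes upstream had log2 fold changes close to 0. *Ldoc1l*, a gene derived from a retrotransposon, had a log2 fold change of 0.02 (SE 0.08), *1810041L15Rik* 0.07 (SE 0.11), and *Parvg*, which encodes the focal adhesion protein gamma-parvin, 0.01 (SE 0.16). In CPM, *Ldoc1l* was at 74.5, 72.7, 86.6 and 92.2 in HR lines 3, 6, 7 and 8 and at 84.7, 86.5, 76.8 and 73.4 in Control lines 1, 2, 4 and 5. Here HR line 8 was the highest line, and the ranges of the linetypes overlapped.

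Downstream, the nearest gene went the other way. *Phf21b*, which encodes a PHD finger protein, lies 13174 bases beyond *Arhgap8* on the minus strand, and was at 2.20, 1.48, 1.80 and 2.22 CPM in HR lines 3, 6, 7 and 8 and at 1.97, 2.43, 2.91 and 2.95 CPM in Control lines 1, 2, 4 and 5. Its log2 fold change was -0.40 (SE 0.18), and HR lines 6 and 7 had the lowest values. *Nup50*, which encodes a nucleoporin, was at 38.6 to 41.5 CPM in HR lines against 40.3 to 42.8 CPM in Control lines, with a log2 fold change of -0.07 (SE 0.04).

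*5031439G07Rik*, at chr15:84943936-84988551, was at 95.4, 131, 129 and 84.6 CPM in HR lines 3, 6, 7 and 8, and at 86.3, 97.3, 79.0 and 79.4 CPM in Control lines 1, 2, 4 and 5. Its log2 fold change was 0.36 (SE 0.11, edgeR unadjusted *p* = 0.00616). HR lines 6 and 7 stood above every Control line, while lines 3 and 8 lay within the Control range. *Fam118a*, at chr15:85028948-85062830, was at 31.2, 35.1, 38.1 and 26.3 CPM in those HR lines and at 25.0, 28.9, 24.0 and 28.0 CPM in those Control lines (log2 fold change 0.31, SE 0.10, edgeR unadjusted *p* = 0.00760). Lines 3, 6 and 7 exceeded every Control line and line 8 did not.

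*Smc1b*, which encodes a cohesin subunit of meiosis, at chr15:85064689-85131964, had only 11 to 102 counts per library. It was at 1.29, 1.67, 1.71 and 0.368 CPM in HR lines 3, 6, 7 and 8 and at 0.625, 0.591, 0.708 and 0.892 CPM in Control lines 1, 2, 4 and 5, with a log2 fold change of 0.82 (SE 0.33, edgeR unadjusted *p* = 0.0250). HR line 8 was again the lowest line of all. *Upk3a*, a uroplakin gene named here after its values were seen as the neighbour with the smallest *p*, was at 1.84, 1.86, 2.58 and 1.77 CPM in the HR lines, each above all 4 Control lines (1.02 to 1.68 CPM), with a log2 fold change of 0.61 (SE 0.15, edgeR adjusted *p* = 0.494).

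**Figure D3:**
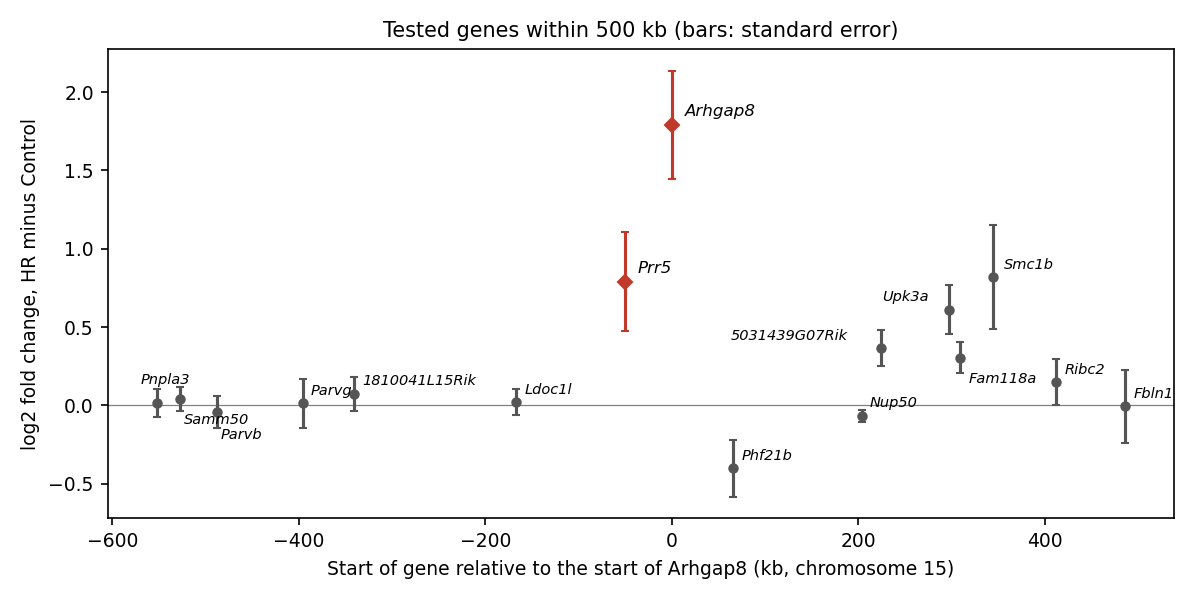
Log2 fold change of HR against Control lines (bars, standard error) for the genes tested within 500 kb, placed by the distance in kb of their start from the start of *Arhgap8*. Genes upstream of *Prr5* lie between -0.04 and 0.07, *Arhgap8* is at 1.79 and *Prr5* at 0.79, and the downstream genes run from -0.40 for *Phf21b* to 0.82 for *Smc1b*.

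When all other genes tested were ranked by how alike their pattern was to that of *Arhgap8*, some of these neighbours came out on top. The measure was Pearson's r over log2 CPM of the 16 libraries after the mean of each sex was removed, a description without a test, since the libraries share lines and linetype. Of 16506 genes, *5031439G07Rik* ranked 1 (r = 0.877), *Fam118a* 2 (r = 0.863), *Ipo8*, an importin gene on chromosome 6, 3 (r = 0.847), *Mrps10*, a mitochondrial ribosomal protein gene on chromosome 17, 4 (r = 0.839) and *Smc1b* 5 (r = 0.839). *Prr5* ranked 8 (r = 0.809). *Phf21b* and *Nup50*, which lie between *Arhgap8* and the first of these, had r of -0.61 and -0.46.

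The alike genes on other chromosomes had smaller fold changes than *Arhgap8*. So did the alike neighbours, with log2 fold changes of 0.36 for *5031439G07Rik*, 0.31 for *Fam118a* and 0.82 for *Smc1b*. *Ipo8* was at 50.4, 53.0, 52.1 and 45.6 CPM in HR lines 3, 6, 7 and 8 and at 46.9 to 49.6 CPM in Control lines, with a log2 fold change of 0.07 (SE 0.04). *Mrps10* was at 7.35, 9.73, 11.5 and 7.30 CPM in the HR lines and at 5.45 to 7.47 CPM in the Control lines, with a log2 fold change of 0.55 (SE 0.14, edgeR adjusted *p* = 0.529). When the linetype mean was removed as well, a choice made after the data were seen, *Smc1b* kept r = 0.882 and *5031439G07Rik* fell to rank 18 (r = 0.794), *Prr5* to rank 26 (r = 0.768) and *Fam118a* to rank 30 (r = 0.760), leaving 1 neighbour among the 5 most alike genes in place of 3.

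**Figure D4:**
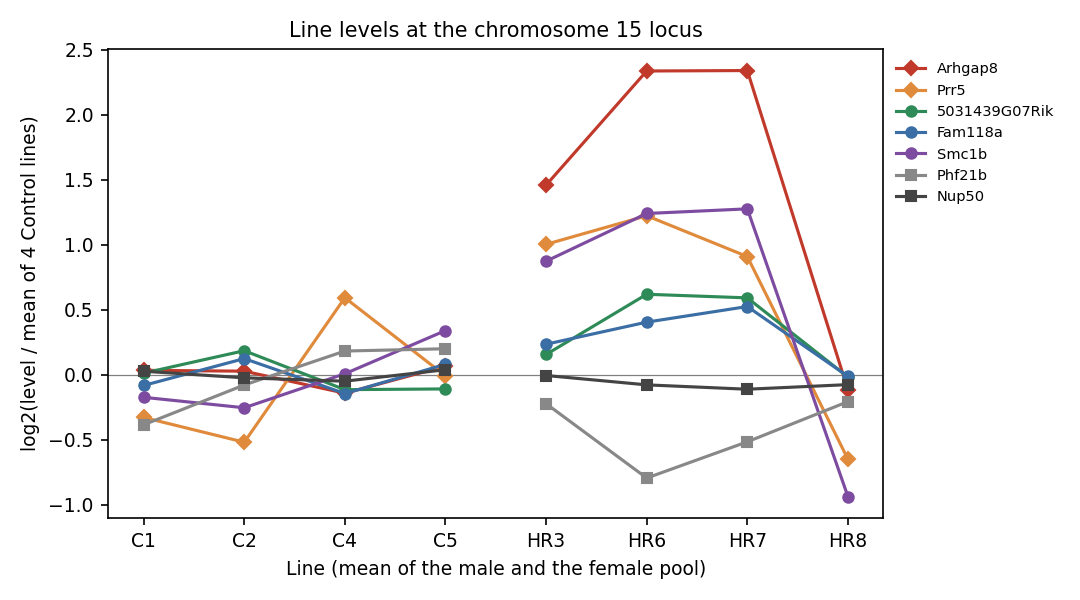
Line levels (mean of the male and the female pool) as log2 of the ratio to the mean of the 4 Control lines, for *Arhgap8*, *Prr5* and 5 downstream neighbours. *Arhgap8* stands at 1.46, 2.34 and 2.34 in HR lines 3, 6 and 7 and at -0.11 in HR line 8. Every gene shown is below 0 in HR line 8, from -0.01 for *Fam118a* to -0.94 for *Smc1b*, and *Phf21b* and *Nup50* are below 0 in every HR line.

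None of the genes tested among the partners of PRR5 and the relatives of ARHGAP8 passed the test between the linetypes. Of 8 genes of mTOR complex 2 and its assembly factors, all tested, 0 passed edgeR's quasi-likelihood test after adjustment, against 0.0242% of all genes. In the same edgeR test 0 had an unadjusted *p* under 0.05, against 3.3% of all genes. In so short a list, 0 does not set these genes apart from all genes. Their median log2 fold change was 0.004, with values from -0.17 to 0.33. *Rictor*, whose protein binds PRR5, was at a mean of 97.6 CPM in the HR lines against 87.5 CPM in the Control lines (log2 fold change 0.16, SE 0.10). *Prr5l*, the paralog of *Prr5*, had a mean of 4.34 CPM in HR lines against 4.90 CPM in Control lines (-0.17, SE 0.21), and *Deptor*, an inhibitor of mTOR, had the widest error (0.33, SE 0.46). *Mtor* itself was at -0.02 (SE 0.06).

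Among the kinases that mTOR complex 2 phosphorylates, 10 of 11 were tested, with log2 fold changes from -0.24 for *Sgk1* (SE 0.28) to 0.08 for *Prkcd* (SE 0.06). *Sgk2* was too low to test. *Rptor* and *Akt1s1*, which belong to mTOR complex 1, were at 0.03 and 0.01. The 5 other BCH domain genes ranged from -0.14 to 0.08, with *Arhgap1* at -0.02 (SE 0.05). In each of these lists 0 genes passed in either direction, by edgeR or by DESeq2, against 0.0242% and 0.182% of all genes. An unadjusted *p* under 0.05 in edgeR was reached by 0, against 3.3% of all genes. The lists are too short for these counts to differ from those shares.

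**Figure D5:**
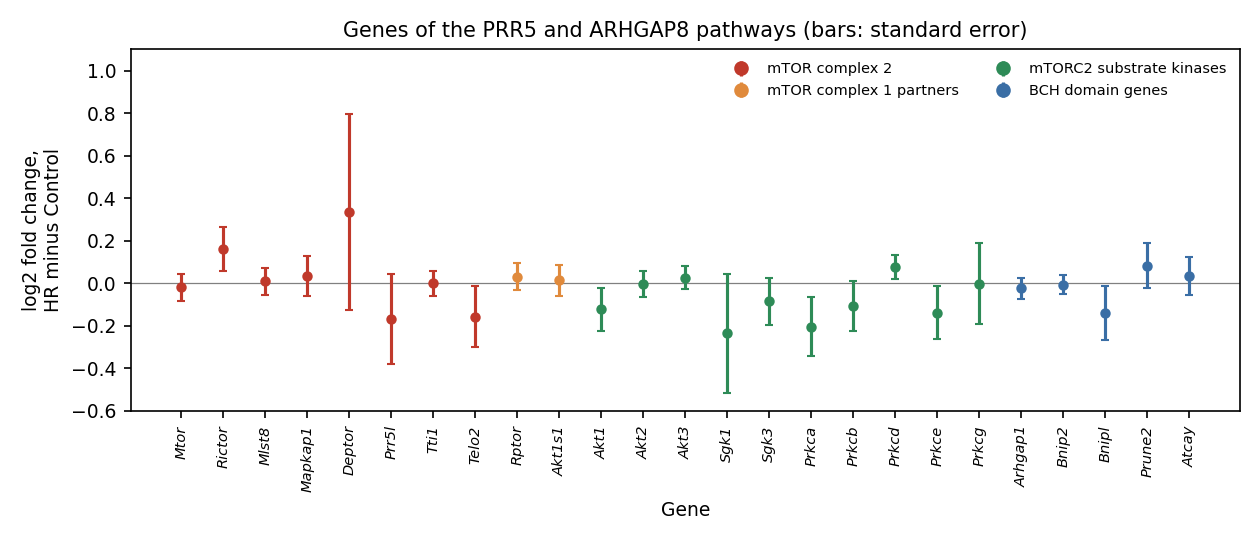
Log2 fold change of HR against Control lines (bars, standard error) for the tested genes of mTOR complex 2, mTOR complex 1, the substrate kinases and the BCH domain genes, coloured by list. All values lie between -0.24 and 0.33, and the widest bar is that of *Deptor*.

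Markers of other cells in the nose were set beside these levels. The 8 nasal gland markers summed to 34.0 to 6458 CPM in HR libraries, with a median of 608, and to 122 to 2158 CPM in Control libraries, with a median of 524. The male and the female pool of HR line 8 had 34.0 and 202 CPM. Of the 7 gland markers tested, 3 had an unadjusted edgeR *p* under 0.05, all higher in HR lines, where 1.6% of all genes were. After adjustment by edgeR 0 passed, against 0.0242% of all genes. The 7 tested gland markers had a median log2 fold change of 1.98, against 0.003 over all genes tested. Values ran from -0.17 (SE 0.74) for *Muc5b*, the only gland marker below 0, to 3.49 (SE 1.18) for *Dcpp1*. The level of *Dcpp1* ranged from 0.0567 to 103 CPM over libraries. At the same unadjusted threshold, 1 of 7 tested ciliated and 1 of 3 tested skeletal muscle markers were higher in HR lines. The ciliated list as a whole had a median log2 fold change of -0.16. In the immature neuron and the epidermis lists, 1 of 6 tested markers each was lower, where 1.7% of all genes were. Over 16 libraries, with the mean of each sex removed, the log of the gland sum had r = 0.436 with *Arhgap8* and r = 0.593 with *Prr5*, and the main olfactory neuron list had r = -0.414 with *Arhgap8* and r = -0.708 with *Prr5*. Skeletal muscle markers, at 2.55 to 5.27 CPM in sum over all libraries, had r = 0.484 with *Arhgap8* and r = 0.416 with *Prr5*, and cartilage and bone markers had r = 0.152 and r = 0.561. Over the other 8 lists r ran from -0.252 to 0.056 with *Arhgap8* and from -0.471 to 0.275 with *Prr5*. These are descriptions over libraries that share lines, and the part of these cells in the levels of *Arhgap8* and *Prr5* was not tested.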

How the data were processed

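RNA of the VNO was measured in 16 libraries, 1 male and 1 female pool of each of 4 HR and 4 Control lines, grouped by their labels. The authors aligned the reads to GRCm38 (mm10) with STAR 2.6.1d, accepting no mismatch and only uniquely mapped reads, so a read that crosses a base differing from the reference is lost. Per the deposited files, count tables hold raw read counts per gene, and RPKM tables hold values that the authors derived with Cufflinks, for each sex separately. The counting tool, its annotation and its use of the strand are not given in the sources used here. Cuffdiff needs alignments and was not used. Every column of values was used. Entries with a repeated gene name were left out.

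Counts were fitted with edgeR 4.0.16 (quasi-likelihood test, TMM, filterByExpr with a minimum count of 10, terms for sex and linetype) in R 4.3.3, tested on simulated data. CPM were scaled by TMM, and log2 CPM used a prior count of 2. *P* values were adjusted by Benjamini-Hochberg over every gene tested, with 0.05 as the threshold. DESeq2 1.42.0, limma 3.58.1 (voom), other size factors, no filter, sums over each line, each sex alone and each line left out were alternatives. Exact permutations were run in Python 3.11.15 with scipy 1.17.1. SD are over line means, each the mean of a male and a female pool.

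Genes named were *Arhgap8*, *Prr5*, the 3 nearest tested genes on each side within 500 kb, any gene called there or in the pathway lists, and the 5 genes most like *Arhgap8*. One pathway list is not reported here. The members and the lists were chosen with earlier results of these data known. The line number pairs the male and the female library: after group means were removed, their deviations correlated across genes at r = 0.321 to 0.708, over 0.1 in every line. Lines are nested in linetype, so a replicate block for line was used for sex and the interaction and could not be fitted for linetype. The fit across 16 libraries treats both pools of a line as separate samples, which makes its *p* for linetype too small where pools of a line agree. Counts of same-group libraries differed by more than counting noise, and none was a copy of another.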

Additional observations from a re-analysis of the deposited data

How the results depend on the processing

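The fold change of *Arhgap8* in HR against Control lines stayed between 1.52 and 2.11 in log2 units over 15 alternatives, and that of *Prr5* between 0.60 and 1.07 with adjusted *p* from 0.356 to 1 in edgeR, DESeq2 and limma-voom. With each line summed to 1 sample, *Prr5* was at 0.74 (SE 0.41) and *Arhgap8* at 1.79 (SE 0.46). For the agreement of the pools of a line, *Arhgap8* had a mean difference of 0.19 in log2 CPM (exact one-sided *p* = 0.0556). Unadjusted, the exact *p* fell under 0.05 on log2(RPKM + 1), at 0.144 (exact *p* = 0.0486), and on log2(RPKM + 0.1), at 0.175 (exact *p* = 0.0486). It also did so without Control line 2, at 0.156 (exact *p* = 0.0417). These *p* were not adjusted over the 2 genes, and differences on the RPKM scales cannot be compared in size with those in log2 CPM. Leaving out 1 line at a time gave 0.11 to 0.21 for *Arhgap8* (exact *p* = 0.0417 to 0.250) and 0.23 to 0.34 for *Prr5* (exact *p* = 0.0556 to 0.292), with *p* = 0.250 without HR line 3 and 0.222 without HR line 8 for *Arhgap8* in the exact test. The correlation of *Prr5* with *Arhgap8* over line means ran from -0.0478 without HR line 8, where the relation was lost (exact permutation *p* = 0.896), to 0.93 without Control line 4. The neighbourhood and the pathway lists held 0 called genes under every alternative run in edgeR, DESeq2 and limma-voom, while the neighbours at an unadjusted *p* under 0.05, 5 of 14 in edgeR, numbered from 2 to 6 over them. With line as a replicate block, the paired fits gave sex differences of 0.13 (SE 0.10, edgeR adjusted *p* = 0.510) for *Arhgap8* and -0.46 for *Prr5*, and interactions of -0.24 (SE 0.19) and 0.22 (SE 0.34), and changed no call. The 10 counts of the shallowest *Prr5* value limit its precision, and the 4 lines per linetype limit both genes.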
